A study of Homo sapiens with 12 samples.

Results

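The box C/D genes described here are 9 of the 58288 genes in the deposited tables. They encode the core proteins of the box C/D small nucleolar ribonucleoprotein (snoRNP), its assembly factors, and partners in the nucleolus and the Cajal body. They were taken by symbol, through their Ensembl identifiers, and each symbol matched 1 gene. The samples were 2 human T-cell acute lymphoblastic leukemia (T-ALL) lines, HPB-ALL and KOPTK1. Cells of each line carried a lentiviral pLKO.1 short hairpin RNA (shRNA) against SHQ1 (shSHQ1) or against GFP as control (shGFP), and all were kept in puromycin at 2 μg per mL for 48 h. The labels list 3 samples in each of the 4 groups of line and shRNA. RNA was depleted of ribosomal RNA before sequencing.

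Box C/D snoRNPs place 2′-O-methyl groups on ribosomal and small nuclear RNAs, with a small nucleolar RNA (snoRNA) that pairs with the target and guides the methyltransferase. Each particle is built on the snoRNA's C and D boxes from a shared set of core proteins, with help from assembly factors and the HSP90 chaperone system. SHQ1, the gene targeted in these cells, acts on the other main class, the H/ACA snoRNPs that make pseudouridine.

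The 12 libraries could be given a cell line but not an shRNA, because their columns carry only the numbers 1 to 12 and 0 of these numbers equals a label. The comparison of shSHQ1 with shGFP was therefore not made. Each library is named below by its line and column number. The libraries held 22884785 to 42842791 counts assigned to genes, with the lowest totals in KOPTK1 libraries 4, 5 and 6. The 9 genes received between 599.5 and 14775.5 counts in a library. SHQ1 itself ranged in HPB-ALL from 140.4 to 217 counts per 1000000 counts (CPM), with a median of 181 CPM. In KOPTK1 it ranged from 119 to 141 CPM, with a median of 130 CPM, so the ranges of the lines just overlapped. These values check no label, since the shRNA of each library is unknown here.

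The KOPTK1 libraries did not form one set. Across 21495 genes, libraries 1, 2 and 3 had Pearson correlations of 0.974, 0.974 and 0.973 with the median HPB-ALL profile, while libraries 4, 5 and 6 each had 0.934. Every HPB-ALL library had 0.998 with the median of the others. HPB-ALL libraries 7, 8 and 9 still differed from 10, 11 and 12 by 4.05 to 5.93 times the variance of counting. Within these HPB-ALL sets the values were 2.95 to 3.81 and 2.11 to 2.68, and between the KOPTK1 sets 20.58 to 24.42. A pair of lineage markers showed the same order as the correlations. CD79A, a B-cell receptor component, was at 50.6 to 57.8 CPM in HPB-ALL. It was at 30.2, 30.9 and 30.5 CPM in KOPTK1 libraries 1, 2 and 3, and at 9.02, 8.58 and 7.38 CPM in libraries 4, 5 and 6. TRBC2, a T-cell receptor constant gene, was at 142 to 169.6 CPM in HPB-ALL, at 657, 648 and 647 CPM in KOPTK1 libraries 1, 2 and 3, and at 991, 991 and 994 CPM in libraries 4, 5 and 6. For CD79A and TRBC2, libraries 1, 2 and 3 thus lay between HPB-ALL and the other KOPTK1 libraries. Of the 13 matched T-lineage markers, 8 showed this order in all libraries, TRBC2 among them, and 5 did not, namely CD3D, CD5, CD7, TRAC and PTCRA. MYC did not show it either, at 265, 256 and 268 CPM in libraries 1, 2 and 3 and 256, 257 and 253 CPM in libraries 4, 5 and 6. The cause of the split within either line was not tested. Each box C/D gene is compared between the lines with all libraries and without either set of 3 KOPTK1 libraries.

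**Figure D1:**
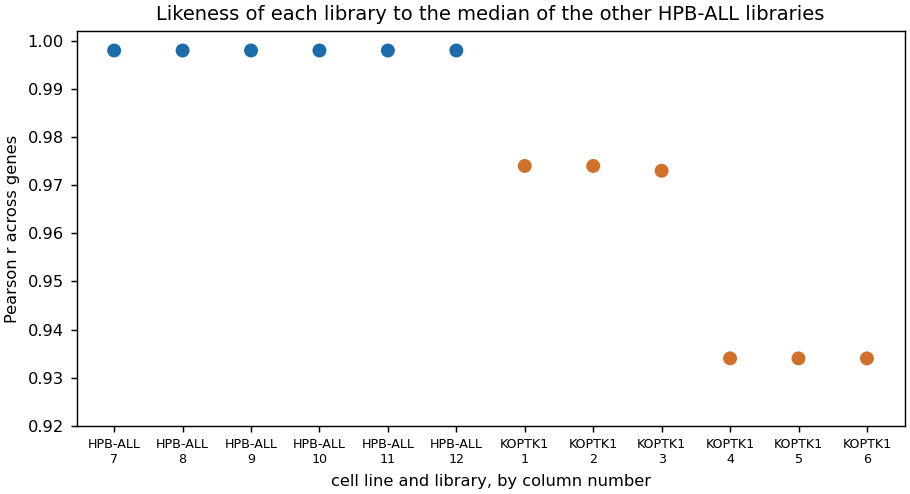
Pearson correlation across 21495 genes, on the y axis, between each of the 12 libraries on the x axis and the median of the other HPB-ALL libraries. KOPTK1 libraries 1, 2 and 3 sit at 0.973 to 0.974, above libraries 4, 5 and 6 at 0.934.

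Markers of the labelled cell type were present. All 13 matched T-lineage markers had a median of at least 1 CPM in both lines, and LCK, a T-cell kinase, led in HPB-ALL at 559 CPM. Of 4 B-lineage markers, 1 reached 1 CPM in HPB-ALL and 2 in KOPTK1. Of 3 erythroid markers, 0 reached it in either line. The summed level of the B-lineage list ranged from 51.9 to 58.6 CPM in HPB-ALL and from 10.4 to 33.3 CPM in KOPTK1, with CD79A the most abundant in both. The most abundant myeloid marker was CSF1R, at 1.19 CPM in HPB-ALL and 2.42 CPM in KOPTK1. CD33, another myeloid marker, ran the other way, with medians of 0.84 CPM in HPB-ALL and 0.26 CPM in KOPTK1. The most abundant stromal marker was COL1A1, at 9.25 CPM in HPB-ALL and 7.66 CPM in KOPTK1. KOPTK1 library 3 stood apart in several low markers. It held 73 counts of COL1A2, where the other KOPTK1 libraries held 0 to 4, and 41 of MPO, where they held 0 to 8. It also had the most counts of CD33 and EPCAM in that line, 36 and 13, and the highest summed levels of the myeloid list, 5.82 CPM, and of the stromal or epithelial list, 14.1 CPM. Its counts differed from those of libraries 1 and 2 by 5.71 and 5.69 times the variance of counting, where libraries 1 and 2 differed by 2.61. The part of these markers in the differences between the lines was not tested.

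The comparison of the lines asked which box C/D genes differed in level between HPB-ALL and KOPTK1. NOP58, SNU13 and NOLC1 were higher in HPB-ALL and COIL and NUFIP1 lower, each with no overlap between the lines. ZNHIT6 was higher by a smaller margin, and its ranges overlapped. The share of all genes with no overlap between the lines was not counted, so the lack of overlap cannot be called particular to these genes. FBL, NOP56 and ZNHIT3 did not pass the test with all libraries.

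The test was edgeR's quasi-likelihood test with Benjamini-Hochberg adjustment over all 27834 genes tested, and all 9 box C/D genes entered it. Of these, 4 were higher and 2 lower in HPB-ALL at an adjusted p under 0.05, while of all genes tested 63.8 percent passed, 30.6 percent higher and 33.2 percent lower. The members' share is near this background. All 9 changes lay under 1.5-fold. Of all genes, 29.1 percent had both an adjusted p under 0.05 and a change of at least 1.5-fold, 11.5 percent higher and 17.6 percent lower. Without KOPTK1 libraries 1, 2 and 3, 5 of the 9 were higher and 3 lower by edgeR, beside 68.0 percent of all genes, 33.8 percent higher and 34.2 percent lower. There NOP58, SNU13 and COIL met both conditions, as did 39.5 percent of all genes. Without KOPTK1 libraries 4, 5 and 6, 3 were higher and 2 lower, beside 50.2 percent of all genes, 24.3 percent higher and 26.0 percent lower.

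Cell line, table and preparation cannot be told apart, and the shRNA is mixed within each line. The labels do not say whether the samples of a line came from separate cultures, and if they did not, the p-values measure only the spread between these libraries, which may be technical. In bulk RNA, fewer cells that express a gene and less RNA of it per cell cannot be told apart.

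The core proteins differed among themselves. FBL (ENSG00000105202.8) encodes fibrillarin, the methyltransferase of the particle. It lies on the minus strand at chr19:39834458-39846414 (GRCh38) with 9 merged exons. Its level in HPB-ALL had a lowest value of 123 CPM, a median of 133 and a highest of 139.5, and in KOPTK1 123, 128 and 132 CPM. The ranges overlapped. The log2 fold change of HPB-ALL over KOPTK1 was 0.06 (SE 0.03), with an adjusted p of 0.125 by edgeR with Benjamini-Hochberg adjustment. FBL passed without KOPTK1 libraries 1, 2 and 3 (0.11, edgeR adjusted p = 0.0205), without HPB-ALL library 9 (0.09, edgeR adjusted p = 0.0369), with no filter on low counts (0.13, edgeR adjusted p = 0.0127) and in DESeq2's Wald test (0.08, DESeq2 adjusted p = 0.0498). The last 2 settings shifted the log2 fold changes of all genes by a median of 0.063 and 0.019, about as much as that of FBL. Without KOPTK1 libraries 4, 5 and 6 it was at 0.05 (edgeR adjusted p = 0.347).

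NOP56 (ENSG00000101361.16), at chr20:2652145-2658393 on the plus strand, encodes a scaffold protein that brings fibrillarin to the snoRNA. It had a lowest value of 236 CPM, a median of 242 and a highest of 246 in HPB-ALL, and 241, 253 and 259.8 CPM in KOPTK1. The KOPTK1 libraries reached higher, but the lowest of them lay within the HPB-ALL range. Its log2 fold change was -0.06 (SE 0.03, edgeR adjusted p = 0.0669), and 0.00287 with no filter on low counts (edgeR adjusted p = 0.942), again by about the shift of all genes. NOP56 passed without KOPTK1 libraries 1, 2 and 3 (-0.06, edgeR adjusted p = 0.0491) and without KOPTK1 library 2 alone (-0.07, edgeR adjusted p = 0.0367). Without libraries 4, 5 and 6 it was at -0.03 (edgeR adjusted p = 0.388).

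NOP58 (ENSG00000055044.10), the related scaffold protein that sits beside NOP56, lies at chr2:202265716-202303666 on the plus strand. Its lowest, median and highest values were 167, 173 and 175 CPM in HPB-ALL and 114, 128 and 148 CPM in KOPTK1. The lines did not overlap. KOPTK1 libraries 4, 5 and 6 were at 114, 115 and 118 CPM, below libraries 1, 2 and 3 at 138, 148 and 139 CPM. NOP58 was 1.34-fold higher in HPB-ALL, a log2 fold change of 0.42 (SE 0.06, edgeR adjusted p = 3.83e-05). Without libraries 1, 2 and 3 the log2 fold change was 0.59 (edgeR adjusted p = 9.82e-13), and without libraries 4, 5 and 6 it was 0.29 (edgeR adjusted p = 1.54e-06).

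SNU13 (ENSG00000100138.13), at chr22:41673930-41690504 on the minus strand, encodes the protein that binds the kink-turn formed by the C and D boxes, and is also part of the U4 spliceosomal particle. As for NOP58, KOPTK1 libraries 4, 5 and 6 were the lowest and libraries 1, 2 and 3 lay between them and HPB-ALL. Its lowest, median and highest values were 94.3, 99.6 and 103 CPM in HPB-ALL and 62.8, 71.5 and 86.1 CPM in KOPTK1, with no overlap. It was 1.36-fold higher in HPB-ALL, a log2 fold change of 0.44 (SE 0.07, edgeR adjusted p = 5.43e-05). The log2 fold change was 0.62 without KOPTK1 libraries 1, 2 and 3 and 0.30 without libraries 4, 5 and 6, with edgeR adjusted p of 1.16e-11 and 6.65e-06.

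**Figure D2:**
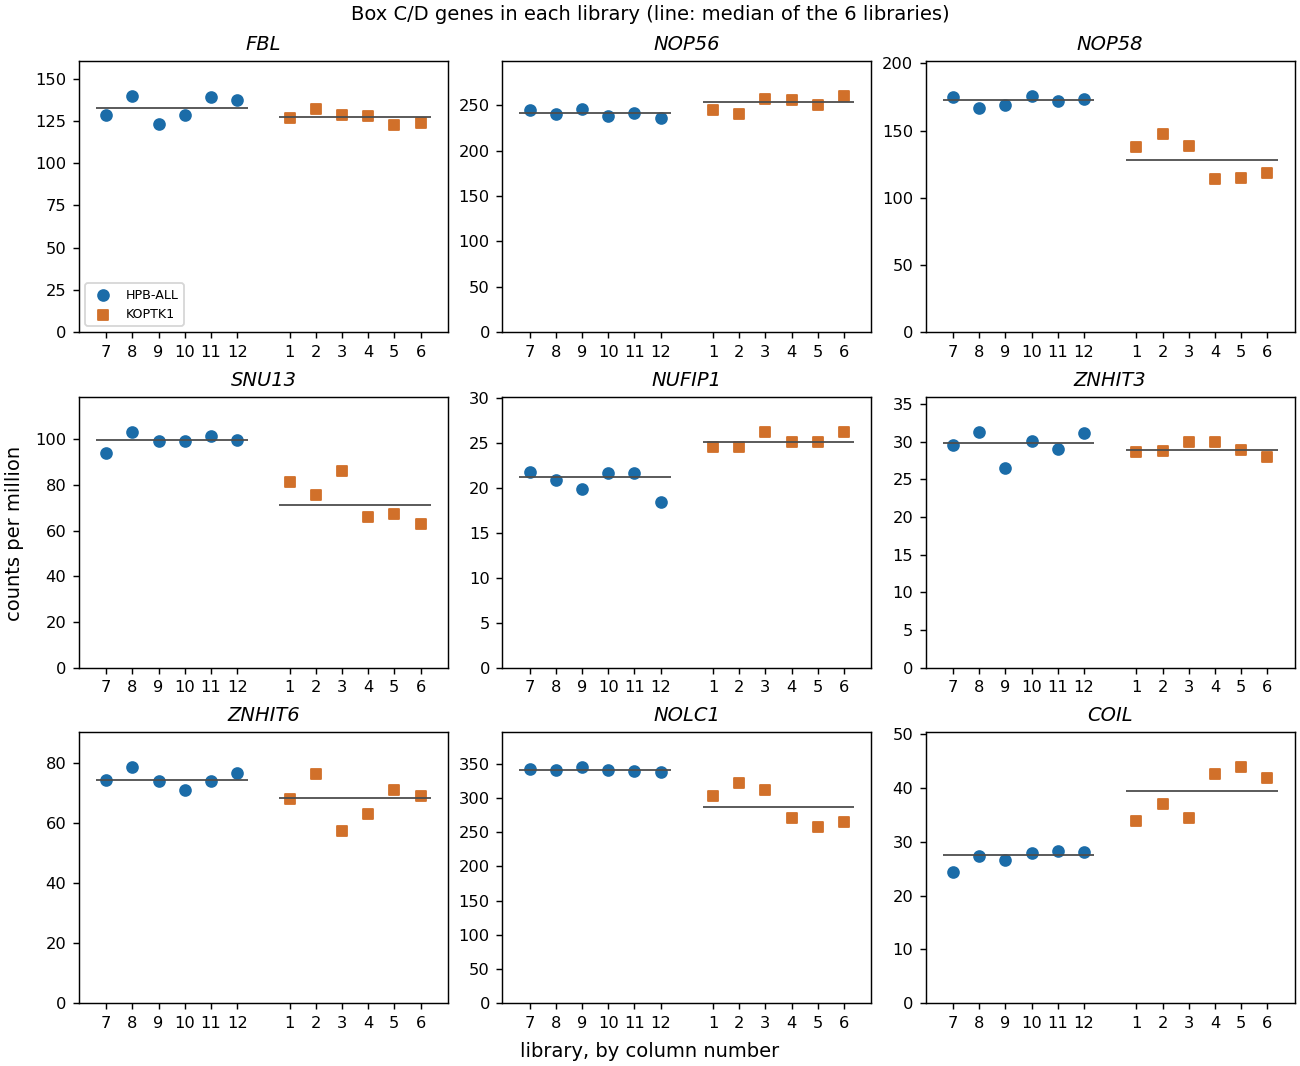
Level in CPM of each of the 9 box C/D genes, on the y axis, in the 12 libraries, on the x axis by column number, with HPB-ALL as circles, KOPTK1 as squares and a line at the median of each line. For NOP58, HPB-ALL libraries sit at 167 to 175 CPM and all KOPTK1 libraries at 148 CPM or lower, while the lines overlap for FBL.

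The assembly factors also differed among themselves. NUFIP1 (ENSG00000083635.7), at chr13:44939249-44989483 on the minus strand, encodes a platform protein that links SNU13 with the assembly machinery. Its lowest, median and highest values were 18.4, 21.2 and 21.8 CPM in HPB-ALL and 24.5, 25.0 and 26.2 CPM in KOPTK1. Every HPB-ALL library was below every KOPTK1 library, and NUFIP1 was 1.22-fold lower in HPB-ALL, a log2 fold change of -0.29 (SE 0.05, edgeR adjusted p = 0.000253). It was -0.28 without KOPTK1 libraries 1, 2 and 3 and -0.27 without libraries 4, 5 and 6, with edgeR adjusted p of 0.000454 and 0.00103. It shares 78 bp of exon with an unnamed gene on the same strand, which was at 1.39 CPM at most.

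ZNHIT3 (ENSG00000273611.4), at chr17:36486629-36498148 on the plus strand, encodes a zinc finger partner that stabilizes NUFIP1. It had a lowest value of 26.4 CPM, a median of 29.8 and a highest of 31.3 in HPB-ALL, and 27.9, 28.8 and 30.01 CPM in KOPTK1. The KOPTK1 range lay inside that of HPB-ALL. ZNHIT3 did not pass, with a log2 fold change of 0.03 (SE 0.05, edgeR adjusted p = 0.596), and a 95 percent interval from -0.07 to 0.13. It was at 0.05 without KOPTK1 libraries 1, 2 and 3 (edgeR adjusted p = 0.419) and at 0.03 without libraries 4, 5 and 6 (edgeR adjusted p = 0.649). It shares 191 bp of exon with MYO19 on the opposite strand, which reached 145 CPM, and the reads of the 2 genes there cannot be told apart without strand.

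ZNHIT6 (ENSG00000117174.10), at chr1:85649423-85708433 on the minus strand, encodes the zinc finger assembly factor also called BCD1. Its lowest, median and highest values were 71.0, 74.2 and 78.5 CPM in HPB-ALL and 57.2, 68.5 and 76.4 CPM in KOPTK1. The ranges overlapped, and the KOPTK1 library with the lowest value was library 3, which also stood apart in the markers above. Its log2 fold change was 0.15 (SE 0.06, edgeR adjusted p = 0.0416), and this call rested on single libraries. It was lost in 7 of the 12 fits that each left out 1 library. In edgeR the adjusted p was 0.0609 without HPB-ALL library 7, 0.0804 without 8, 0.0548 without 9 and 0.0607 without 12. It was 0.0573 without KOPTK1 library 1, 0.055 without 3 and 0.0901 without 4, again in edgeR, with log2 fold changes over these 7 fits from 0.11 to 0.16. Without KOPTK1 libraries 4, 5 and 6 the call was also lost (0.16, edgeR adjusted p = 0.0563), and without libraries 1, 2 and 3 it held (0.16, edgeR adjusted p = 0.00264).

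The partners differed in opposite directions. NOLC1 (ENSG00000166197.16), at chr10:102152176-102163871 on the plus strand, encodes Nopp140, a phosphoprotein that associates with both classes of snoRNP in the nucleolus and the Cajal body. Its lowest, median and highest values were 339, 341 and 345 CPM in HPB-ALL and 257, 286 and 322 CPM in KOPTK1, with no overlap and with KOPTK1 libraries 4, 5 and 6 again the lowest. It was 1.18-fold higher in HPB-ALL, a log2 fold change of 0.24 (SE 0.05, edgeR adjusted p = 0.000791). It was 0.39 on the log2 scale without KOPTK1 libraries 1, 2 and 3 and 0.14 without libraries 4, 5 and 6, with edgeR adjusted p of 7.44e-11 and 0.000588.

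COIL (ENSG00000121058.4), at chr17:56938187-56961054 on the minus strand, encodes coilin, the marker protein of the Cajal body. Its lowest, median and highest values were 24.4, 27.6 and 28.4 CPM in HPB-ALL and 33.8, 39.4 and 43.8 CPM in KOPTK1. No HPB-ALL library reached the KOPTK1 range, and within it libraries 4, 5 and 6 were the highest. COIL was 1.43-fold lower in HPB-ALL, a log2 fold change of -0.52 (SE 0.07, edgeR adjusted p = 2.41e-05). It was -0.64 without KOPTK1 libraries 1, 2 and 3 and -0.37 without libraries 4, 5 and 6, with edgeR adjusted p of 4.15e-10 and 1.57e-05. A pseudogene, COILP1, held at most 7.27 percent of the count of COIL in any library, and the value of COIL is uncertain where reads fit both.

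**Figure D3:**
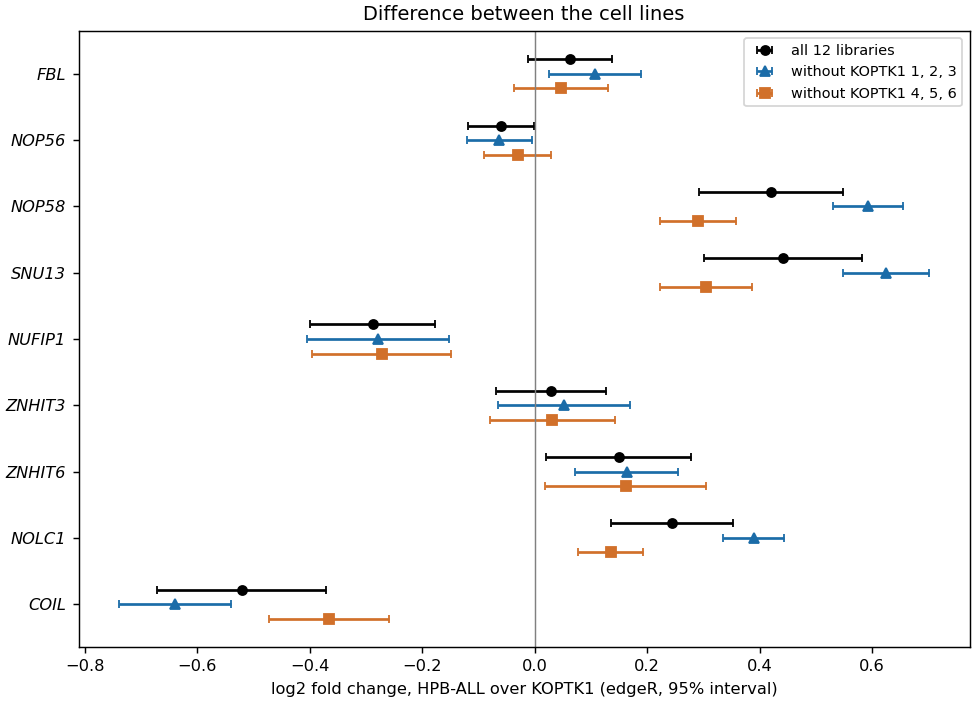
Log2 fold change of HPB-ALL over KOPTK1 on the x axis for each of the 9 genes, with 95 percent intervals from edgeR, for all 12 libraries and with either set of 3 KOPTK1 libraries left out. NOP58 is at 0.42 with all libraries, at 0.59 without KOPTK1 libraries 1, 2 and 3, and at 0.29 without libraries 4, 5 and 6.

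Levels between genes were compared per length, as CPM per kilobase of exon. The length is the exon length deposited for each gene, such as 1160 bp for FBL and 3970 bp for NOLC1. It may differ from that of the transcripts expressed, and the order depends on it. By CPM alone NOLC1 had the highest median of the 9 genes, 341 CPM in HPB-ALL and 286 CPM in KOPTK1. In HPB-ALL, FBL was the highest with a median of 115 CPM per kilobase, followed by NOP56 at 101, NOLC1 at 86.0, NOP58 at 84.4 and SNU13 at 54.2. Then came ZNHIT3 at 19.9, ZNHIT6 at 11.97, COIL at 10.4 and NUFIP1 at 6.08 CPM per kilobase. In that order, only the neighbours NOLC1 and NOP58 overlapped in their ranges over the 6 libraries. In KOPTK1 the order was the same except that COIL, at 14.9 CPM per kilobase, stood above ZNHIT6 at 11.1, and the ranges of FBL and NOP56 overlapped, as did those of NOLC1 and NOP58. Of the genes at 1 CPM per kilobase or more, FBL stood above 98.5 percent in either line, while NUFIP1 stood above 48.5 percent in HPB-ALL and 53.2 percent in KOPTK1.

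**Figure D4:**
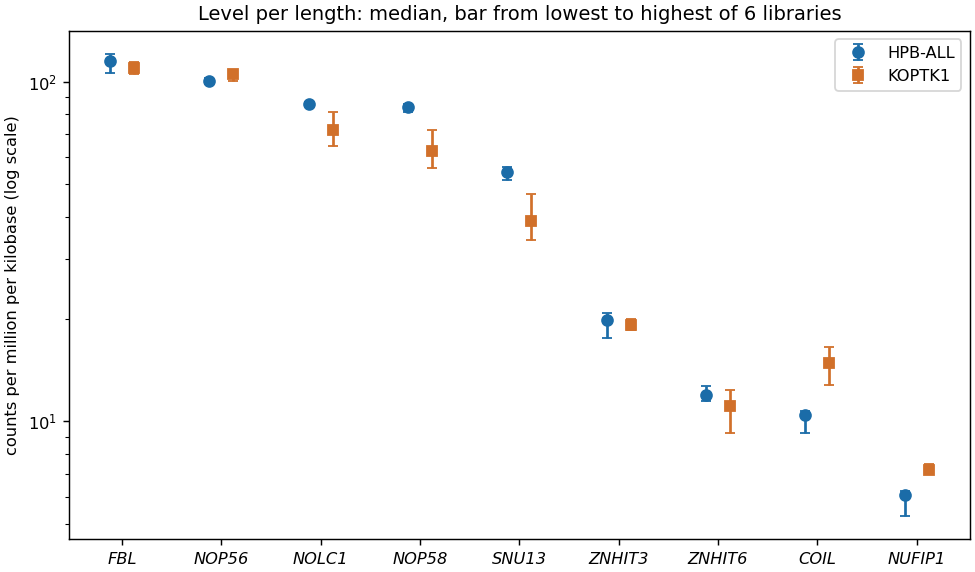
Median level per length of the 9 genes, in CPM per kilobase of exon on a log y axis, with bars from the lowest to the highest of 6 libraries in each line. In HPB-ALL the core proteins and NOLC1 lie at 54.2 or higher, and the assembly factors and COIL at 19.9 or lower.

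The spread between the libraries of a line, given as the coefficient of variation (CV), set the genes apart in another way. In HPB-ALL, NOLC1 had a CV of 0.667 percent, and only 0.578 percent of the genes of like level, those in the same bin when genes were split into 10 bins by mean level, varied less. FBL had the highest CV of the core proteins there, 5.10 percent, with a median of 2.78 percent in genes of like level. In KOPTK1 the CV was 11.3 percent for NOP58 and 12.7 percent for SNU13, with medians of 5.402 and 6.16 percent in genes of like level. NUFIP1 and ZNHIT3, at 3.02 and 2.83 percent, had a low CV in KOPTK1, where genes of their level had a median of 8.57 percent. The KOPTK1 values include both sets of libraries.

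Of 14432 other protein-coding genes, the 5 most like the mean log2 level of the 4 core proteins over the 12 libraries, after removal of the mean of each line, were TRIB2, ZBTB7B, GIMAP6, RPA3 and RPA1, with Pearson correlations from 0.980 to 0.986. This likeness mostly sets the KOPTK1 libraries against each other, since the core mean lay 0.06 to 0.10 above that of the line in libraries 1, 2 and 3, at -0.07 to -0.08 in libraries 4, 5 and 6, and between -0.03 and 0.03 in every HPB-ALL library. The core proteins did not all share this mean, of which each is part, with correlations of 0.942 for SNU13, 0.880 for NOP58, 0.522 for FBL and -0.434 for NOP56. Within HPB-ALL alone the correlations were 0.969 for FBL, 0.746 for SNU13, -0.338 for NOP58 and -0.440 for NOP56. Within KOPTK1 alone they were 0.954 for SNU13, 0.939 for NOP58, 0.688 for FBL and -0.447 for NOP56. The likeness is a description, and the relation could not be tested.

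NOP56 and NOP58 host snoRNA genes in their introns, so that a transcript of a core protein gene also carries box C/D guide RNAs, the kind its protein binds. The hosted genes found here were SNORD86, SNORD110 and SNORA51 in NOP56, and a pair of SNORD70 copies, SNORD11 and SNORD11B in NOP58. This list may not be complete. The sequences below, from GENCODE transcripts on GRCh37 matched by Ensembl identifier and length, show the box elements on which the core proteins assemble. Capitals mark TGATGA, a form of box C, within the first 30 bases and CTGA, box D, within the last 16.
SNORD110: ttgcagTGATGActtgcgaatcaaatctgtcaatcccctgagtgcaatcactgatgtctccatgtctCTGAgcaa
SNORD11B: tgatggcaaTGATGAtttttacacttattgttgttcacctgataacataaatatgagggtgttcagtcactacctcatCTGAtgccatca
SNORD86: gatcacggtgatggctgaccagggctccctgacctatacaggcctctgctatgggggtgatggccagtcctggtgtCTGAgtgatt

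SNORD110 and SNORD11B held both sets of letters, and SNORD86 and both SNORD70 copies held only CTGA, so that 2 of the 5 hosted SNORD genes with a sequence held both. Of 390 SNORD transcripts in the same reference, 201 held both, or 51.5 percent. SNORD110 lies at chr20:2654212-2654286, SNORD86 at chr20:2656097-2656182 and SNORD11B at chr2:202291332-202291421, all on the plus strand in the deposited gene models (GRCh38). A missing match says only that these letters were not in that window.

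The hosted snoRNA genes are short and drew few counts. SNORD86 had medians of 9.64 CPM in HPB-ALL and 10.8 CPM in KOPTK1, and SNORD110 3.73 and 3.53 CPM. Per length, these were 112 and 126 CPM per kilobase for SNORD86 and 49.7 and 47.1 for SNORD110. Reads of a snoRNA and of the intron that holds it cannot be told apart in these counts. Of the 7 hosted snoRNA genes, 2 were lower in HPB-ALL by edgeR and 5 did not pass, beside 33.2 percent of all genes lower and 63.8 percent called in either direction. SNORA51, an H/ACA snoRNA, was 1.45-fold lower (log2 fold change -0.53, SE 0.12, edgeR adjusted p = 0.00154). It was at -0.71 without KOPTK1 libraries 1, 2 and 3 and at -0.31 without libraries 4, 5 and 6. SNORD86 had a log2 fold change of -0.15 (SE 0.06, edgeR adjusted p = 0.0303), a call lost with no filter (-0.09, edgeR adjusted p = 0.276), with DESeq2's size factors (-0.13, edgeR adjusted p = 0.0533), in DESeq2's Wald test (-0.13, DESeq2 adjusted p = 0.0542) and without KOPTK1 libraries 4, 5 and 6 (-0.12, edgeR adjusted p = 0.155). It was also lost on leaving out any 1 of HPB-ALL libraries 7, 9, 11 and 12, where the edgeR adjusted p was 0.0582, 0.0586, 0.0618 and 0.0765. The same held for KOPTK1 libraries 3, 4 and 5, where it was 0.0695, 0.0507 and 0.0686 in edgeR. The log2 fold changes over these 7 fits ran from -0.15 to -0.13. Among the 4 hosted by NOP58, SNORD11 passed without KOPTK1 library 2 (0.37, edgeR adjusted p = 0.0214), with no filter (0.35, edgeR adjusted p = 0.0478) and without KOPTK1 libraries 1, 2 and 3 (0.34, edgeR adjusted p = 0.0493). The SNORD70 copy ENSG00000212309.1 passed without HPB-ALL library 10 (0.42, edgeR adjusted p = 0.024) or KOPTK1 library 6 (0.41, edgeR adjusted p = 0.0321). This copy also passed with DESeq2's size factors (0.36, edgeR adjusted p = 0.0493) and with no filter (0.41, edgeR adjusted p = 0.043).

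MYC, a transcription factor known to act on genes of ribosome production, had medians of 211 CPM in HPB-ALL and 257 CPM in KOPTK1. It was 1.20-fold lower in HPB-ALL (log2 fold change -0.26, SE 0.04, edgeR adjusted p = 9.26e-05).

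Genes that work with the box C/D particle were counted by list. The median log2 fold change of all genes tested was -0.03, with 30.6 percent called higher and 33.2 percent lower. In the HSP90-R2TP machinery, which folds and assembles the particle, 4 of 7 genes were higher in HPB-ALL and 2 lower, with a median of 0.17. Of the lower calls, 1 was lost with DESeq2's size factors and in DESeq2's Wald test, and both were lost with no filter, where 5 were higher, and without KOPTK1 libraries 4, 5 and 6. RUVBL2, an AAA+ ATPase of the complex, was 1.59-fold higher (log2 fold change 0.67, SE 0.12, edgeR adjusted p = 0.000279), whereas its partner RUVBL1 was 1.08-fold lower (log2 fold change -0.12, SE 0.04, edgeR adjusted p = 0.011). RUVBL2 was at 1.03 on the log2 scale without KOPTK1 libraries 1, 2 and 3 and at 0.40 without libraries 4, 5 and 6. The RUVBL1 call was lost without KOPTK1 libraries 4, 5 and 6 (edgeR adjusted p = 0.0705) and with no filter (edgeR adjusted p = 0.279). Among genes of snoRNA capping and transport, 3 of 5 were higher and 1 lower, with a median of 0.20. TGS1, the cap hypermethylase, was the lower one at -0.43 (SE 0.05, edgeR adjusted p = 2.86e-06).

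Of 8 genes of the U3 snoRNP and small subunit processome, which act on the early ribosomal RNA precursor, 6 were higher in HPB-ALL and 2 did not pass, with a median log2 fold change of 0.27. HEATR1, a processome protein, was at 0.32 (SE 0.06, edgeR adjusted p = 0.000274). Without KOPTK1 libraries 4, 5 and 6 the median was 0.18 and HEATR1 was at 0.20. Of 8 other nucleolar proteins, 7 were higher and 1 did not pass, with a median of 0.30. NCL, which encodes nucleolin, was at 0.39 (SE 0.06, edgeR adjusted p = 5.65e-05), and POLR1A, the largest subunit of RNA polymerase I, was at 0.48 (edgeR adjusted p = 3.37e-05). Without KOPTK1 libraries 4, 5 and 6, 6 of 8 were higher in either list, beside 24.3 percent of all genes, and without libraries 1, 2 and 3 they were 6 and 7 of 8, beside 33.8 percent.

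Of the H/ACA counterparts, 4 of 6 were higher and 2 did not pass, with a median of 0.21. DKC1, the pseudouridine synthase that is to this particle what fibrillarin is to the box C/D particle, was 1.21-fold higher (log2 fold change 0.27, SE 0.04, edgeR adjusted p = 5.58e-05). SHQ1 was 1.38-fold higher in HPB-ALL (log2 fold change 0.46, SE 0.12, edgeR adjusted p = 0.00355), across libraries that carried both shRNAs. HPB-ALL libraries 10, 11 and 12, at 140.4 to 149 CPM, lay near KOPTK1 libraries 1, 2 and 3, at 134 to 141 CPM. HPB-ALL libraries 7, 8 and 9 lay higher, at 213 to 217 CPM. In the Cajal body and SMN list, 3 of 7 were higher and 2 lower, with a median of 0.07. With DESeq2's size factors, in DESeq2's Wald test, with no filter and without KOPTK1 libraries 1, 2 and 3, 4 were higher. The added gene, DDX20, also passed without KOPTK1 library 3 alone (0.10, edgeR adjusted p = 0.0272). The median was 0.14 with no filter and without libraries 1, 2 and 3, and 0.03 without libraries 4, 5 and 6. The lower ones with all libraries were SMN1 and SMN2, near-identical copies whose reads the counting could split, so both are uncertain. GEMIN5 passed as lower without HPB-ALL library 9 alone (-0.08, edgeR adjusted p = 0.0366). With all libraries GEMIN5 was at -0.07 (edgeR adjusted p = 0.0736). Among 8 relatives that share a domain with the box C/D proteins, 1 was higher and 3 lower. With DESeq2's size factors, in DESeq2's Wald test, with no filter and without KOPTK1 libraries 1, 2 and 3, 2 were higher. The added gene was TCOF1, which also passed without KOPTK1 library 2 alone (0.09, edgeR adjusted p = 0.0421), beside 0.07 with all libraries (edgeR adjusted p = 0.103). The median of the list was -0.03 with all libraries, 0.03 with no filter, 0.05 without KOPTK1 libraries 1, 2 and 3 and -0.08 without libraries 4, 5 and 6.

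**Figure D5:**
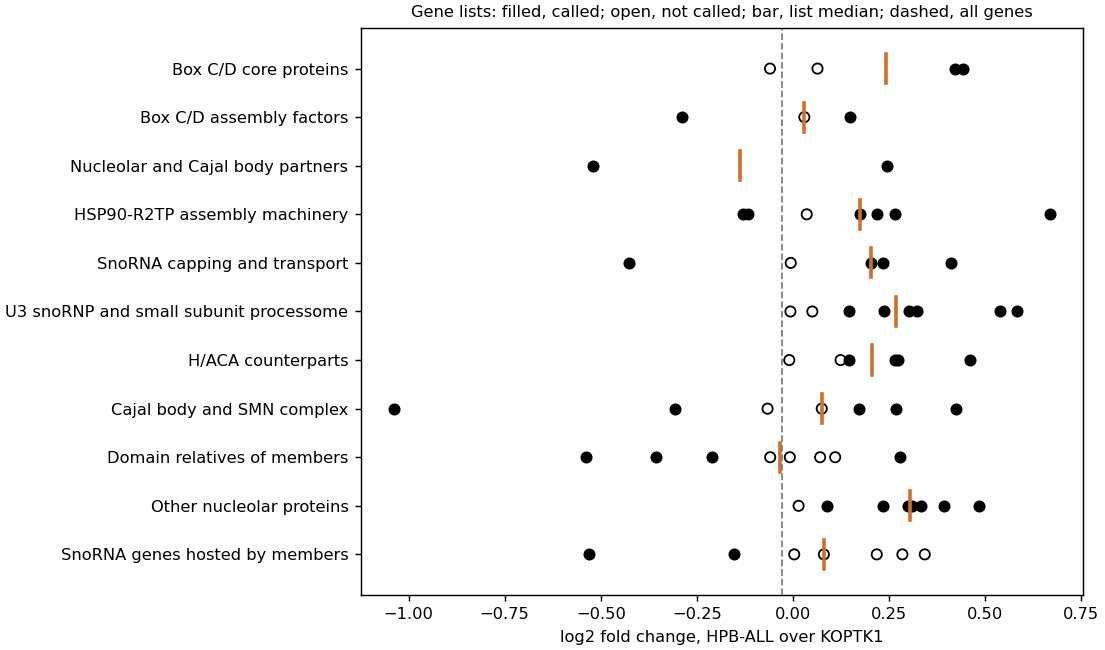
Log2 fold change of HPB-ALL over KOPTK1 on the x axis for each gene of the 11 lists, with filled points for genes that passed an adjusted p of 0.05 in edgeR, open points for those that did not, a bar at the median of each list and a dashed line at the median of all genes tested, -0.03. The median of the other nucleolar proteins is 0.30 and that of the relatives by domain is -0.03, or 0.03 with no filter on low counts and 0.05 without KOPTK1 libraries 1, 2 and 3.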

How the data were processed

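Libraries were made from rRNA-depleted total RNA. The submitters' processing notes name Trimmomatic 0.36, STAR 2.5.4b, Picard 2.18.7, featureCounts 1.6.2, edgeR 3.22.3 and build hg38. The authors deposited estimated counts per gene, not all whole numbers, in 1 table per line titled as RPKM, with gene length. Columns that hold the authors' own fold changes, average levels, F values, p-values and false discovery rates were not used. The samples' descriptions tie each table to a line, and no column to an shRNA.

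Here the tables were joined by Ensembl identifier (95.9 percent of identifiers had a symbol) and counts were rounded to whole numbers. edgeR 4.0.16 in R 4.3.3 was run with TMM scaling, filterByExpr and the quasi-likelihood test, 6 libraries against 6, with Benjamini-Hochberg adjustment. CPM used the total of each unrounded column. The fits were tested on simulated data before use. The simulated libraries were drawn independently, without sets of 3 within a line, so they do not show how the fits act where such sets exist. For the smaller of the fold changes tried there, DESeq2 missed the recovery first required, and that requirement was then dropped. Pairs of libraries within a line differed by at least 1.78 times the variance of counting, so none was counted as a duplicate. Alternatives were DESeq2 1.42.0 size factors and Wald test, no filter, a 1.5-fold minimum, each library left out, and, chosen after seeing the data, either set of 3 KOPTK1 libraries left out. The genes named are the 9 genes, at most the 4 genes of each list with the highest mean level, the hosted snoRNAs, MYC, SHQ1, cell type markers and the 5 genes most like the core mean. SMN2 is named beside its copy SMN1, and MYO19 and COILP1 because they share exon or sequence with a box C/D gene, all chosen after values were seen. Members and lists were chosen with earlier results of these data known.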

Additional observations from a re-analysis of the deposited data

Results flagged for a closer look

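In 4 of 90 sets of 6 libraries, 1 for each of 45 named genes in each line, 1 library lay far from the others by Dixon's ratio of gap to range. By chance about 1 in 20 such sets would be picked out if the 6 libraries were independent draws from a normal distribution. The sets of 3 libraries seen within each line depart from this, so the share to expect here is not known. SNORD11 was at 3.35 CPM in HPB-ALL library 8, with the next library at 2.64 CPM. NCL was at 1003 CPM in HPB-ALL library 8, with the next at 975 CPM. GEMIN5, an SMN complex protein, was at 76.5 CPM in HPB-ALL library 9, with the next at 72.7 CPM. NAF1, an H/ACA assembly factor, was at 39.7 CPM in KOPTK1 library 1, with the next at 37.04 CPM. None of the 9 box C/D genes was among them.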

How the results depend on the processing

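No paired analysis was possible because the columns carry no sample or replicate number, so the replicate block for SHQ1 was not run. The pseudocount alternative, meant for normalized values, was not run either. NOP58, SNU13, NUFIP1, NOLC1 and COIL kept direction and call with DESeq2's size factors, with no filter and in DESeq2's Wald test. They also kept both in all 12 fits without 1 library and without either set of 3 KOPTK1 libraries. The last pair of alternatives was chosen after seeing the data, and there the shRNA may differ between the lines. With a minimum of 1.5-fold, 3196 genes were higher and 4900 lower in edgeR, and 0 and 0 of the 9 genes, since all 9 changes were smaller at any p and also in DESeq2. Leaving out each library in turn gave 8096 to 8971 genes higher and 8690 to 9374 lower, with 3 to 4 and 2 to 3 of the 9 genes. Some log2 fold changes near 0 changed sign, none of them called with all libraries. DESeq2's size factors gave 0.0133 for XPO1, 0.00937 for NAF1, 0.0107 for RPL7A and 0.0125 for WDR43, and DESeq2's Wald test 0.0135, 0.00818, 0.0107 and 0.0124. These settings shifted all genes by a median of 0.019. No filter, with a shift of 0.063, gave 0.0567, 0.0526, 0.0543 and 0.0556, and 0.00287 for NOP56. Under these 3 settings each gene named moved by about the shift. XPO1 was at 0.0377 without KOPTK1 libraries 4, 5 and 6. Without libraries 1, 2 and 3, NAF1 was at 0.0415, RPL7A at 0.0149 and WDR43 at 0.0472. With 1 library left out the log2 fold change ran from -0.0174 to 0.021 for XPO1, from -0.0154 to 0.0114 for NAF1 and from -0.0152 to 0.0049 for RPL7A. It ran from -0.0277 to 0.0211 for WDR43 and from -0.117 to 0.0843 for the SNORD70 copy ENSG00000212534.1. The cause of the other sign changes was not tested. Low counts limit the hosted snoRNAs, the least of which had 21 counts in a library.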

Other observations

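SHQ1, the target of the knockdown, fell into separate clusters within HPB-ALL. Libraries 7, 8 and 9 were at 213, 217 and 215 CPM, and libraries 10, 11 and 12 at 144, 140.4 and 149 CPM. In KOPTK1, SHQ1 was at 138, 134 and 141 CPM in libraries 1, 2 and 3 and at 127, 127 and 119 CPM in libraries 4, 5 and 6. No shRNA was read from these values.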
